A study of Mus musculus with 18 samples.

Results

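The 10 genes described here control the decision of a cell to leave the first gap phase (G1) of the cell cycle. They are the D cyclins Ccnd1, Ccnd2 and Ccnd3, their kinases Cdk4 and Cdk6, the INK4 inhibitor genes Cdkn2a and Cdkn2b, the Cip/Kip inhibitors Cdkn1b and Cdkn1c, and the retinoblastoma gene Rb1. They were chosen by name from the 23951 gene symbols of the series, and all 10 passed the filter on low values (1 FPKM or more in at least 3 of the 18 libraries).

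Cells had been sorted from mouse pancreas and from pancreatic tumors, and their poly(A) RNA sequenced. The authors deposited the levels as FPKM, by definition a fragment count scaled by transcript length and by the mapped fragments of the library. Normal pancreatic fibroblasts (NPF, n = 3) came from mice without floxed Trp53. Cancer-associated fibroblasts (WT_CAF, n = 5) and tumor cells (WT_tumor, n = 4) came from tumor-bearing mice that were Trp53lox/lox. KO_CAF (n = 3) and KO_tumor (n = 3) carried the same alleles together with Saa3-/-, a deletion of the gene for serum amyloid A3. All 5 groups, the controls included, carried the Elas-tTA/tetO-Cre driver and, as a reporter, Rosa26+/EYFP. The elastase promoter acts in acinar cells, so recombination of the floxed Trp53 alleles starts from that lineage and the fibroblasts are not its target. Neither age nor sort marker is stated in the labels.

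D cyclins bind CDK4 or CDK6, and the active kinases phosphorylate the retinoblastoma protein, which then releases E2F transcription factors and lets the genes of DNA replication be transcribed. INK4 proteins such as p16 and p15 bind the kinases themselves and keep them from the cyclin, whereas the Cip/Kip proteins p27 and p57 act on cyclin-CDK complexes. In human pancreatic ductal adenocarcinoma, loss of the INK4 locus is a frequent lesion.

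The labelled cell types were checked against marker genes. Over 11 fibroblast markers, the mean log2(FPKM + 1) ran from 6.02 to 8.79 in 10 of the 11 fibroblast libraries and from 1.11 to 4.46 in the 7 tumor libraries. Over 10 epithelial markers it ran from 5.56 to 8.70 in tumor libraries and from 0.68 to 4.13 in fibroblasts. The exception was WT_CAF 1, with a fibroblast mean of 4.96. The library nearest to it, by Spearman correlation over the genes tested, was WT_tumor 4 (0.887), which has the lowest epithelial mean of the tumor libraries (5.56). Whether the label of WT_CAF 1 is right was not tested. Saa3 stood at 0 to 1.85 FPKM in the 6 knockout libraries, below all 12 others (2.75 to 4278 FPKM), and WT_CAF 1 had 7.24 FPKM where the other WT_CAF had 892 to 4278. Acinar marker means ranged from 5.09 to 9.94 in NPF, from 0.52 to 4.42 in WT_CAF and KO_CAF and from 0.58 to 8.92 in tumor cells. Mean levels of the other marker lists ran up to 3.09 (macrophage), 3.45 (pericyte), 3.99 (erythroid), 2.98 (islet), 1.76 (endothelial) and 0.98 (lymphocyte). In these bulk libraries fewer cells of a type and less RNA per cell cannot be told apart.

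The description labels carry no index sequence for 5 libraries (NPF 1 to 3, WT_CAF 1 and 2), a 16-base index for 5 (WT_CAF 4 and 5, KO_CAF 3, WT_tumor 1, KO_tumor 2) and a 6-base index for the other 8. This index form entered every test as a term. As a consequence the WT_CAF against NPF difference rests on WT_CAF 1 and 2 alone. In every other difference that includes WT_CAF, that between KO_CAF and WT_CAF among them, WT_CAF 1 and 2 enter only through the estimate of the spread.

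**Figure D1:**
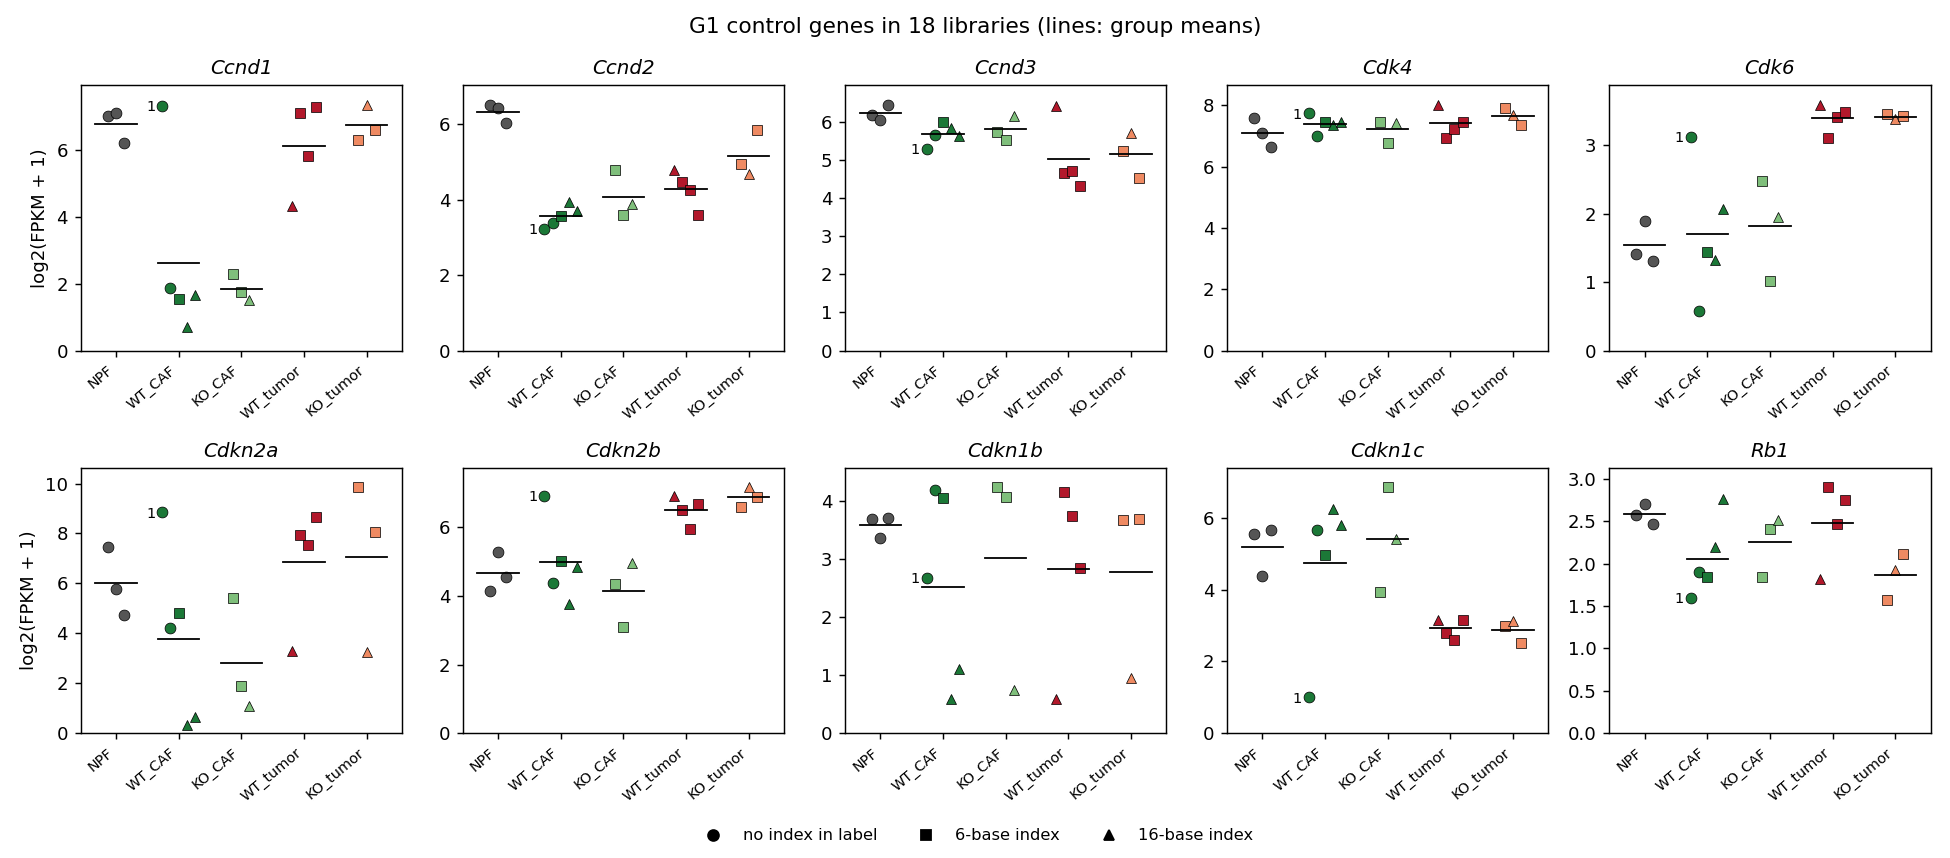
Level of each of the 10 genes in all 18 libraries, as log2(FPKM + 1) on the vertical axis and by group on the horizontal axis; points are single libraries, with a shape for the index form in the label, a line marks the group mean, and "1" marks WT_CAF 1. Ccnd1 is low in 7 of the 8 cancer-associated fibroblast libraries, Cdk6 and Cdkn2b are high in all 7 tumor libraries, and Cdkn1b is low in all 5 libraries with a 16-base index.

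Among the D cyclins, Ccnd1 differed widely between the cell populations. Cyclin D1 is the D cyclin that growth factor signalling raises in epithelial cells and fibroblasts. Normal fibroblasts had 129, 137 and 73.5 FPKM. WT_CAF had 161, 2.68, 1.91, 0.616 and 2.18 FPKM and KO_CAF had 3.88, 2.40 and 1.86 FPKM. Apart from WT_CAF 1, every cancer-associated fibroblast library lay below every normal fibroblast library. Tumor cells had 19.1, 139, 55.7 and 156 FPKM with intact Saa3 and 78.1, 164 and 95.8 FPKM without it, so all 7 lay above the 7 low fibroblast libraries. WT_tumor 1, the lowest of the 7, has a 16-base index and an acinar marker mean of 8.14. KO_tumor 2, the highest of the 7, has a 16-base index as well and an acinar marker mean of 7.90. The part of index form or acinar RNA in these Ccnd1 levels was not tested.

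Ccnd2 separated normal from cancer-associated fibroblasts without exception. Cyclin D2 shares the kinases of cyclin D1 and is prominent in lymphoid, gonadal and islet tissue. Its level was 90.6, 84.7 and 64.8 FPKM in NPF, against 8.40, 9.48, 10.9, 14.2 and 11.9 FPKM in WT_CAF and 26.3, 11.03 and 13.8 FPKM in KO_CAF. Tumor cells overlapped the cancer-associated fibroblasts, with 26.8, 21.2, 17.97 and 10.9 FPKM in WT_tumor and 29.5, 24.6 and 56.8 FPKM in KO_tumor. No library of the other 4 groups reached the lowest NPF library.

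Ccnd3, the most broadly expressed D cyclin, moved far less. NPF had 71.8, 65.0 and 86.2 FPKM, WT_CAF 38.1, 49.5, 62.1, 56.1 and 48.2 FPKM and KO_CAF 51.7, 45.1 and 70.0 FPKM. In tumor cells it was 83.8, 24.1, 24.9 and 18.7 FPKM in WT_tumor and 36.4, 50.8 and 21.9 FPKM in KO_tumor. Both tumor libraries with a 16-base index, WT_tumor 1 (83.8 FPKM) and KO_tumor 2 (50.8 FPKM), were above the other 5 tumor libraries.

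Because FPKM is per transcript length, the D cyclins can be set side by side within a library. In normal fibroblasts the summed D cyclin level was 224 to 292 FPKM, of which Ccnd1 made up 32.7% to 47.8%, Ccnd2 28.9% to 31.0% and Ccnd3 22.7% to 38.4%. In the 7 cancer-associated fibroblast libraries other than WT_CAF 1 the sum was 58.5 to 85.6 FPKM, and Ccnd3 held 63.1% to 82.9% of it while Ccnd1 held 0.869% to 4.74%. The D cyclin pool of these fibroblasts was thus smaller and consisted mainly of Ccnd3. In the 7 tumor libraries the sum was 98.5 to 239.9 FPKM with a Ccnd1 share of 14.7% in WT_tumor 1 and 54.2% to 84.0% in the other 6. WT_tumor 1 had a Ccnd3 share of 64.6%, so a pool of mainly Ccnd3 was not confined to the fibroblasts. WT_CAF 1 had a sum of 208 FPKM with a Ccnd1 share of 77.6%, inside the range of the tumor libraries.

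**Figure D2:**
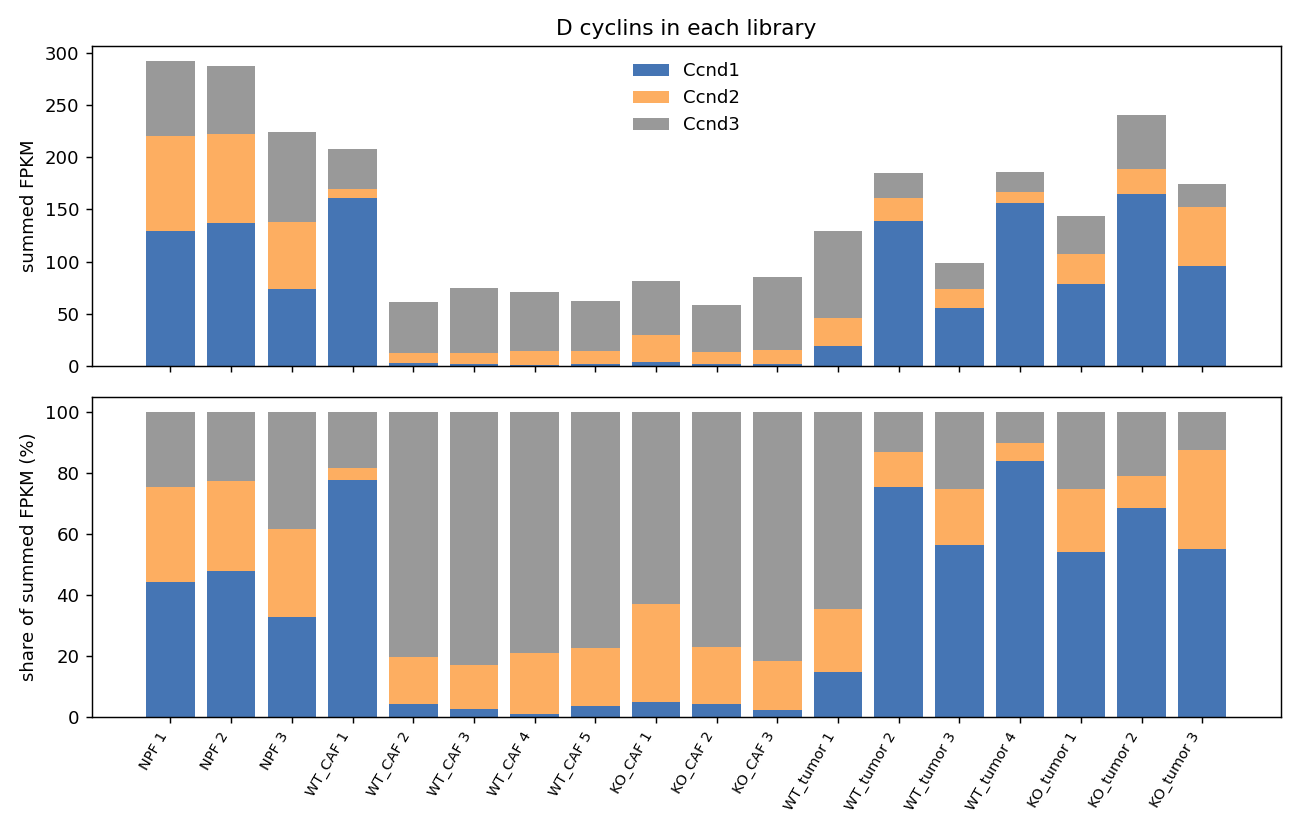
Summed FPKM of Ccnd1, Ccnd2 and Ccnd3 (top) and the share of each in that sum in percent (bottom) for every library, 1 bar a library. Ccnd3 fills 63.1% to 82.9% of the bar in the 7 cancer-associated fibroblast libraries other than WT_CAF 1, and Ccnd1 54.2% to 84.0% in 6 of the 7 tumor libraries. In the remaining tumor library, WT_tumor 1, Ccnd3 fills 64.6%.

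The 2 kinases differed in level and in how far the groups overlapped. Cdk4 was abundant in every library, from 98.2 FPKM in NPF 3 to 259.6 FPKM in WT_tumor 1, and all 5 groups overlapped. Its group medians were 137 FPKM in NPF, 175 FPKM in WT_CAF, 170.3 FPKM in KO_CAF, 163 FPKM in WT_tumor and 205 FPKM in KO_tumor. Cdk6, the D cyclin kinase first known from blood cells, was low in fibroblasts, with 1.66, 2.73 and 1.48 FPKM in NPF, 7.74, 0.489, 1.71, 1.499 and 3.19 FPKM in WT_CAF and 4.60, 1.02 and 2.87 FPKM in KO_CAF. In tumor cells it held a narrow band of 11.1, 7.61, 9.66 and 10.2 FPKM in WT_tumor and 9.96, 9.43 and 9.77 FPKM in KO_tumor. The highest fibroblast value, again in WT_CAF 1, was just above the lowest tumor value. Cdk6 made up 4.001% to 6.08% of the summed Cdk4 and Cdk6 level in tumor cells, 0.387% to 2.53% in 10 fibroblast libraries and 3.51% in WT_CAF 1.

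Since Cdk6 differed between the populations and Cdk4 did not pass the test in any comparison, the 250 bases before the annotated start of each are shown, from RefSeq (build GRCm38.p6, + strand for both, chr10:127063285-127063534 for Cdk4 and chr5:3343643-3343892 for Cdk6). Capitals mark matches, on either strand, to an E box (CACGTG, bound by MYC and related factors), a GC box (GGGCGG) or a TATA motif (TATAAA).
Cdk4: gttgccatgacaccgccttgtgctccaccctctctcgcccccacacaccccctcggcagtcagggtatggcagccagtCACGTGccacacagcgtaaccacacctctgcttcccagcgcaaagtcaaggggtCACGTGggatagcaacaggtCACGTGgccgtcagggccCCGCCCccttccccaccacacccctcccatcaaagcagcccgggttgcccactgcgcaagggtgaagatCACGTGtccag
Cdk6: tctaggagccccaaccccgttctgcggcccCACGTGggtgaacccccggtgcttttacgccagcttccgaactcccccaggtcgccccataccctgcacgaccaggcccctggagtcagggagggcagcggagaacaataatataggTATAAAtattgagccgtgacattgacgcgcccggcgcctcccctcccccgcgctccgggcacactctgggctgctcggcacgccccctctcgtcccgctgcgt
The Cdk4 window holds 4 E boxes and 1 GC box, and that of Cdk6 holds 1 E box and 1 TATA motif. Of 32851 RefSeq promoter windows of this length, 6.02% hold CACGTG, 32.7% GGGCGG and 12.4% TATAAA. These are matches of letters only. The promoter table matched 6 of the 10 genes, and Ccnd1, Ccnd2, Cdkn1c and Rb1 have no sequence shown.

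The INK4 inhibitor genes Cdkn2a and Cdkn2b lie next to each other on chromosome 4. Cdkn2b encodes p15. Cdkn2a encodes p16 from one start and the unrelated p19Arf protein, which protects p53 from Mdm2, from another start further upstream, and the single FPKM value of Cdkn2a covers transcripts of both. The 250 bases before each of the 3 starts are shown to let these be compared (RefSeq, build GRCm38.p6, - strand, chr4:89294620-89294869 for the upstream Cdkn2a start, chr4:89282193-89282442 for the downstream one and chr4:89311033-89311282 for Cdkn2b). Capitals mark GGGCGG and the E2F motif (TTTCGCGC, TTTGGCGC, TTTCCCGC or TTTGCCGC), both strands searched.
Cdkn2a, upstream start: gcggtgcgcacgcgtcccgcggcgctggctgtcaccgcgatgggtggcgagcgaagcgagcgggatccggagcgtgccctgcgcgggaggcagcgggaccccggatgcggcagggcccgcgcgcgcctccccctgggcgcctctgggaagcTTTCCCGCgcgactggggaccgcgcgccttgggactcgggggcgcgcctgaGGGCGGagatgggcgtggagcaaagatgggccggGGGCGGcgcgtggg
Cdkn2a, downstream start: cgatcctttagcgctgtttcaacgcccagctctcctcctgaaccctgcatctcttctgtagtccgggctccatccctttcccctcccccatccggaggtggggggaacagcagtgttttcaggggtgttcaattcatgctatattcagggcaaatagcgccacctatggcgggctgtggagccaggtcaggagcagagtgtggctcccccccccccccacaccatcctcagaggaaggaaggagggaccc
Cdkn2b: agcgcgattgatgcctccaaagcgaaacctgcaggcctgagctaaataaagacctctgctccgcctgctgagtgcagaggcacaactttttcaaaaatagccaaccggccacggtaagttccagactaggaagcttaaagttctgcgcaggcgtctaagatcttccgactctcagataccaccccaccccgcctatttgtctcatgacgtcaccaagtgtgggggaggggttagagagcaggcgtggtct
The upstream Cdkn2a window, with a G and C content of 78.4%, holds 2 GC boxes and 1 E2F motif. The windows of the downstream start (60%) and of Cdkn2b (53.6%) hold no match to these letters or to CACGTG or TATAAA. The E2F motif occurs in 1.86% of the 32851 windows.

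Cdkn2b was high in every tumor library and in 1 fibroblast library. NPF had 16.5, 38.1 and 22.6 FPKM, WT_CAF 120.5, 19.7, 31.4, 12.6 and 27.5 FPKM and KO_CAF 19.4, 7.58 and 29.9 FPKM. WT_tumor had 121, 89.1, 61.3 and 102 FPKM and KO_tumor 95.9, 143 and 116 FPKM. Without WT_CAF 1, the highest of the 10 fibroblast libraries (38.1 FPKM) was below the lowest tumor library (61.3 FPKM).

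Cdkn2a had the widest range of the 10 genes. Fibroblasts had 175, 54.1 and 25.9 FPKM in NPF, 462, 17.5, 27.1, 0.258 and 0.546 FPKM in WT_CAF and 42.0, 2.70 and 1.10 FPKM in KO_CAF. Tumor cells had 8.86, 244, 186 and 407 FPKM in WT_tumor and 924, 8.55 and 263 FPKM in KO_tumor. The groups overlapped, and the low libraries within each group were largely those with a 16-base index: WT_CAF 4 and 5, KO_CAF 3, WT_tumor 1 and KO_tumor 2 were the lowest of their groups.

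Of the Cip/Kip genes, Cdkn1b encodes p27, whose level is set largely by protein turnover. Its FPKM split by index form rather than by group. All 5 libraries with a 16-base index had 0.501 to 1.15 FPKM, and all 13 others had 5.43 to 17.98 FPKM. Within the latter, NPF had 9.31 to 12.2 FPKM, WT_CAF 1 to 3 had 5.43, 17.3 and 15.7 FPKM, KO_CAF 1 and 2 had 17.98 and 15.9 FPKM, WT_tumor 2 to 4 had 16.9, 12.4 and 6.18 FPKM, and KO_tumor 1 and 3 had 11.9 FPKM each.

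That split was tested in the same fit, a comparison chosen after the values were seen. Between 16-base and 6-base libraries, Cdkn1b differed by -3.09 ± 0.27 on the log2(FPKM + 1) scale (SE; limma, adjusted p = 3.0e-06) and Cdkn2a by -4.35 ± 0.84 (adjusted p = 0.0023). Ccnd3 differed by 0.77 ± 0.26 (adjusted p = 0.055) and no other member had an adjusted p under 0.05. Over all 13369 genes, 17.8% were called in this comparison, 891 higher and 1493 lower in 16-base libraries. The labels do not say what else the index form stands for. Between tumor cells and fibroblasts, Cdkn1b had a difference of -0.37 with intact Saa3 (limma, adjusted p = 0.49) and -0.24 without it (adjusted p = 0.65), neither called. Its values were -0.48 within 6-base (n = 4) and -0.25 within 16-base libraries (n = 3) with intact Saa3, and -0.47 (n = 4) and 0.22 (n = 2) without it.

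**Figure D3:**
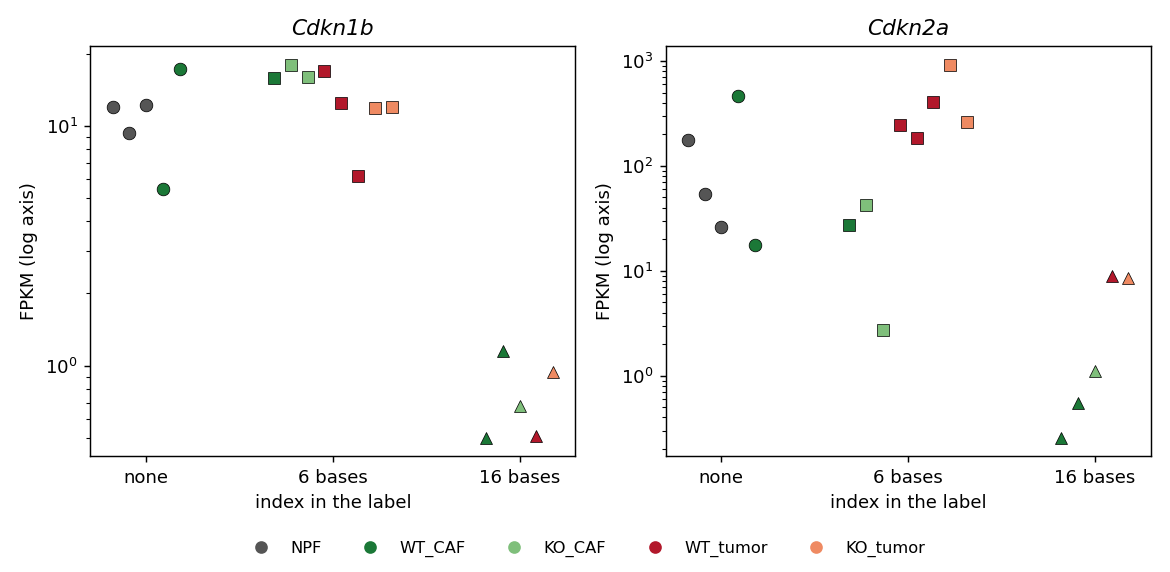
FPKM (log axis) of Cdkn1b and Cdkn2a in each library by the form of the index in its label, coloured by group. The 16-base libraries hold the 5 lowest Cdkn1b values (0.501 to 1.15 FPKM), and for Cdkn2a each group's 16-base libraries are its lowest.

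Cdkn1c encodes p57, an imprinted gene expressed from the maternal copy. Fibroblasts had 45.5, 19.8 and 49.3 FPKM in NPF, 0.9999, 49.4, 29.9, 74.7 and 54.5 FPKM in WT_CAF and 14.4, 114 and 41.7 FPKM in KO_CAF. Tumor cells had 7.96, 5.86, 5.07 and 7.90 FPKM in WT_tumor and 6.87, 7.76 and 4.69 FPKM in KO_tumor. Apart from WT_CAF 1, the lowest of all 18 libraries, every fibroblast library was above every tumor library.

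Rb1, the substrate of the D cyclin kinases, was low throughout. It ranged from 1.96 FPKM in KO_tumor 1 to 6.47 FPKM in WT_tumor 2, with group medians of 4.93 FPKM in NPF, 2.73 FPKM in WT_CAF, 4.32 FPKM in KO_CAF, 5.14 FPKM in WT_tumor and 2.80 FPKM in KO_tumor. The 3 KO_tumor libraries (1.96 to 3.32 FPKM) lay below the 3 NPF libraries (4.53 to 5.54 FPKM), and every other pair of groups overlapped.

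The first comparison the design implies is cancer-associated against normal fibroblasts. Ccnd2 was lower in WT_CAF by -3.01 ± 0.42 on the log2 scale (SE, limma with Benjamini-Hochberg adjustment over all genes, adjusted p = 0.0026). This difference rests on WT_CAF 1 and 2. Over all 5 WT_CAF libraries, each below NPF, the ratio of the group means was 7.29-fold. The means were 80.0 ± 13.5 FPKM in NPF (SD, n = 3) and 10.97 ± 2.24 FPKM in WT_CAF (SD, n = 5). Ccnd2 was the 1 member called of 10, where 0.95% of all genes were called. With only these groups in the fit, no member was called and the adjusted p of Ccnd2 was 0.070 (0.00018 to 0.070 over its alternatives). NPF also had acinar marker means of 5.09 to 9.94 against 1.13 to 4.42 in WT_CAF, and the part of these in the difference was not tested.

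Ccnd1 depended on WT_CAF 1. With all libraries its difference was -2.17 ± 1.14 (limma, adjusted p = 0.35). Without WT_CAF 1 it was -4.90 ± 0.84 (adjusted p = 0.013), a difference that rests on WT_CAF 2 alone and takes its spread from the other groups, so that this 1 library is assumed to vary as they do. Under the same limit Ccnd1 and Ccnd2 were the 2 members called, both lower, where 1.41% of all genes were called. Without WT_CAF 2 the difference rests on WT_CAF 1 and the sign turned (0.56, adjusted p = 0.73). With WT_CAF 1 and the index term both left out, a fit that uses the other 4 WT_CAF libraries, it was -5.34 ± 0.57 (limma, adjusted p = 4.6e-05). The mean of these 4 libraries (1.85 ± 0.881 FPKM, SD, n = 4) was 61.3-fold lower than that of NPF (113 ± 34.7 FPKM, SD, n = 3), and 3 of them differ from NPF in index form. Over all alternatives the limma adjusted p of Ccnd1 ran from 4.6e-05 to 0.73.

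The remaining D cyclin, Ccnd3, lay lower in all 5 WT_CAF libraries than in NPF, at -0.75 (95% interval -1.60 to 0.09, limma adjusted p = 0.35). Rb1 had a difference of -0.83 (interval -1.59 to -0.08, limma adjusted p = 0.26). Cdkn1c at -1.86 (interval -4.04 to 0.31) and Cdkn2b at 0.99 (interval -0.43 to 2.41) both turned sign without WT_CAF 1, to 0.47 and -0.29, where the difference rests on WT_CAF 2. Without WT_CAF 2 they were called, at -4.19 (limma adjusted p = 0.0076) and 2.26 (adjusted p = 0.043), and the difference then rests on WT_CAF 1. In that fit 4 members were called, Ccnd2 and Cdk6 being the others, where 9.98% of all genes were called. Their adjusted p ran from 0.0076 to 0.88 and from 0.043 to 0.91 over the alternatives.

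Loss of Saa3 in fibroblasts gave no called member, and none at an unadjusted p under 0.05 (limma). Over all genes 0.00748% were called by limma, 1 gene, with 125 at an unadjusted p under 0.05. That gene was higher in KO_CAF, so the deleted gene Saa3 was itself not called. Its levels were 0.434 to 1.85 FPKM in KO_CAF and 1182 to 4278 FPKM in WT_CAF 3 to 5. The absence of a call here thus says little about a member. The largest member difference was that of Cdkn2a, at -0.58 (95% interval -3.08 to 1.92). It was -1.16 within 6-base (n = 3) and 0.59 within 16-base libraries (n = 3). WT_CAF 3 is the only WT_CAF library of the former, and KO_CAF 3 the only KO_CAF library of the latter. Ccnd1, at 0.34 (interval -1.91 to 2.59), was 2.71 ± 1.05 FPKM in KO_CAF (SD, n = 3) and 1.85 ± 0.881 FPKM in WT_CAF without replicate 1 (SD, n = 4). The latter mean includes WT_CAF 2, whereas the difference of 0.34 rests on WT_CAF 3 to 5. Ccnd2 differed by 0.35 (interval -0.47 to 1.18). The low Ccnd1 and the mainly Ccnd3 pool stood in fibroblasts of both genotypes apart from WT_CAF 1, and the intervals leave room for changes of either sign.

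Loss of Saa3 in tumor cells gave no called member either, and 1 at an unadjusted p under 0.05 (limma). By limma 0% of all genes were called, Saa3 itself included, with 528 at an unadjusted p under 0.05. Ccnd2 came nearest, at 0.88 ± 0.35 (95% interval 0.13 to 1.63, unadjusted p = 0.025, adjusted p = 1), with 37.0 ± 17.3 FPKM in KO_tumor (SD, n = 3) and 19.2 ± 6.61 FPKM in WT_tumor (SD, n = 4). The lowest KO_tumor library (24.6 FPKM) was below the highest WT_tumor library (26.8 FPKM). Rb1 differed by -0.62 (interval -1.25 to 0.02, limma adjusted p = 1), with 2.69 ± 0.683 FPKM in KO_tumor (SD, n = 3) and 4.82 ± 1.72 FPKM in WT_tumor (SD, n = 4). Ccnd1 differed by 0.67 (interval -1.38 to 2.72). All 3 differences changed sign between index forms, within 6-base libraries (n = 5) and between the 2 libraries of the 16-base index: they were 1.29 and -0.12 for Ccnd2, -0.87 and 0.11 for Rb1, and -0.30 and 3.04 for Ccnd1.

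Whether the effect of Saa3 loss differed between tumor cells and fibroblasts was tested as an interaction. No member was called or had an unadjusted p under 0.05, and 0% of all genes were called, with 185 at an unadjusted p under 0.05 (limma). The widest member values were 1.13 for Cdkn2a (95% interval -2.28 to 4.54) and -0.62 for Rb1 (interval -1.57 to 0.33), as tumor effect minus fibroblast effect.

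Tumor cells were set against the fibroblasts of the same genotype, once with and once without Saa3. These comparisons use different libraries but share 1 estimate of the spread and of the index terms. With intact Saa3, Ccnd1 was higher in tumor cells by 4.57 ± 1.004 (SE; limma, adjusted p = 0.0062), Cdk6 by 1.86 ± 0.50 (adjusted p = 0.017) and Cdkn2b by 2.13 ± 0.58 (adjusted p = 0.019). These 3 of 10 members were called, where 21.5% of all genes were called, 1210 higher and 1670 lower. Within 6-base (n = 4) and within 16-base libraries (n = 3) the differences were 5.21 and 3.15 for Ccnd1, 1.90 and 1.90 for Cdk6, and 1.36 and 2.62 for Cdkn2b. WT_CAF 3 is the only WT_CAF library with a 6-base index, and WT_tumor 1 the only WT_tumor library with a 16-base index.

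Without Saa3 the same 3 genes were higher in KO_tumor than in KO_CAF. Ccnd1 differed by 4.90 ± 1.02 (limma, adjusted p = 0.0036), with 113 ± 45.6 FPKM in KO_tumor (SD, n = 3) and 2.71 ± 1.05 FPKM in KO_CAF (SD, n = 3), a 41.6-fold ratio of means. Cdkn2b differed by 2.75 ± 0.59 (adjusted p = 0.0045), with a 6.25-fold ratio of means, and Cdk6 by 1.60 ± 0.51 (adjusted p = 0.031), with a 3.43-fold ratio. For each of these the KO_tumor and KO_CAF libraries did not overlap, and the share of all genes without overlap was not counted. Cdkn2a (4.26 ± 1.13, adjusted p = 0.013) and Ccnd2 (1.07 ± 0.37, adjusted p = 0.045) were also higher, although their libraries overlapped. For Cdkn2a this was 5.29 within 6-base libraries (n = 4) and 2.18 within the 2 libraries of the 16-base index, and for Ccnd2 1.21 and 0.79. In all, 5 of 10 members were called, all higher, where 28.4% of all genes were called.

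**Figure D4:**
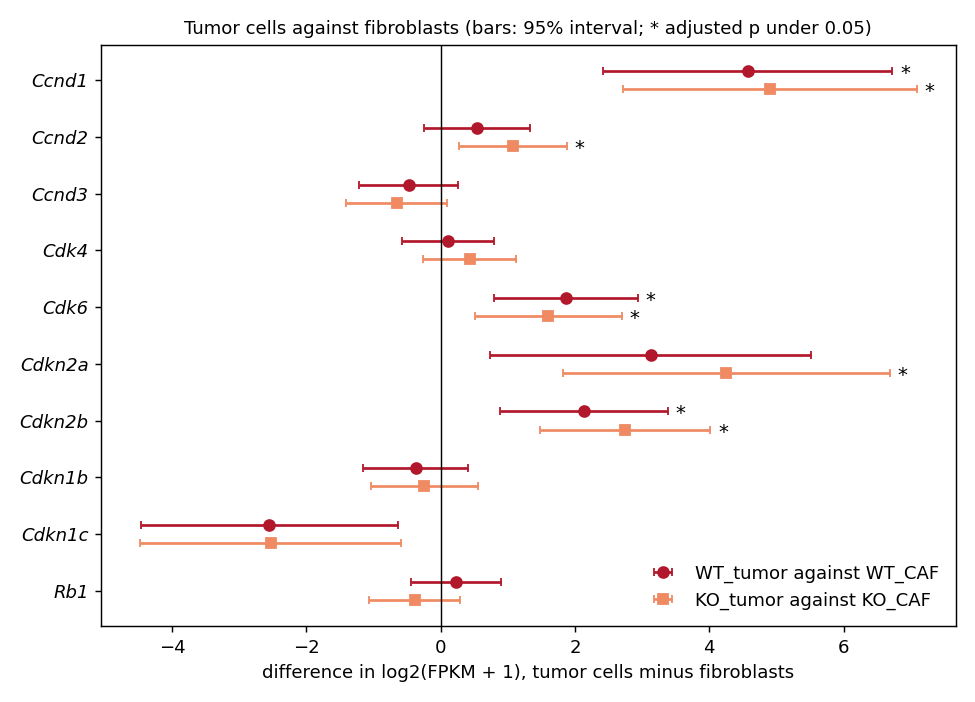
Difference between tumor cells and fibroblasts in log2(FPKM + 1) (horizontal axis) for the 10 genes, with intact Saa3 (circles) and without it (squares); bars are 95% intervals of the limma fit and asterisks mark an adjusted p under 0.05. Ccnd1, Cdk6 and Cdkn2b lie to the right of 0 with an asterisk in both comparisons, and Cdkn1c lies to the left of 0 in both without one.

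Cdkn1c went the other way and missed the threshold narrowly. It differed by -2.55 ± 0.89 with intact Saa3 (limma, adjusted p = 0.055) and by -2.53 ± 0.91 without Saa3 (adjusted p = 0.0503). The fibroblast mean was 8.82-fold higher in the latter pair. Its libraries did not overlap, and again the share of all genes without overlap was not counted. When WT_CAF 1 was left out both differences kept their value, because this library enters them only through the estimate of the spread. Cdkn1c was then called lower in tumor cells in each (limma adjusted p = 0.0047 and 0.0046). WT_CAF 1 holds the outlying Cdkn1c value of its group, so the lower p reflects a narrower spread and is no further support. Over all alternatives the adjusted p ran from 0.00053 to 0.45 and from 0.0033 to 0.23. Cdkn2a with intact Saa3 was at 3.13 ± 1.12 (limma, adjusted p = 0.060, and 0.020 without WT_CAF 1, with 0.020 to 0.32 over the alternatives). Its differences were 3.24 within 6-base (n = 4) and 2.82 within 16-base libraries (n = 3). There too WT_CAF 1 enters only through the spread. In the fit without WT_CAF 1, 5 of 10 members were called with intact Saa3, where 26.6% of all genes were called. Without Saa3, 6 of 10 were called in that fit, where 33.3% of all genes were called.

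Cdk4, Ccnd3 and Ccnd2 with intact Saa3 did not pass. Cdk4 differed by 0.11 (95% interval -0.58 to 0.80) and, without Saa3, by 0.43 (interval -0.26 to 1.13). Ccnd3 differed by -0.48 (interval -1.22 to 0.27) and -0.65 (interval -1.41 to 0.10), and Ccnd2 with intact Saa3 by 0.55 (interval -0.24 to 1.34). The Cdk6 intervals, 0.79 to 2.94 with intact Saa3 and 0.51 to 2.69 without it, overlap those of Cdk4. A difference between the 2 kinase genes was not tested. In Ccnd3 the WT_tumor difference was -1.43 within 6-base (n = 4) and 0.68 within 16-base libraries (n = 3). Without WT_tumor 1 it was called lower (-1.02, limma adjusted p = 0.045, against up to 0.87 under the other alternatives).

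Several of these calls rest on few libraries. With only the compared groups in the fit, no member was called with intact Saa3, where 5.55% of all genes were called. Without Saa3, 4 were called, where 25.8% of all genes were called. Of the 3 members called with intact Saa3, Ccnd1 was no longer called without WT_CAF 3 (adjusted p = 0.053), Cdk6 without WT_CAF 3, WT_CAF 4 or WT_tumor 1 (adjusted p = 0.098, 0.056 and 0.065), and Cdkn2b without WT_CAF 4 or WT_tumor 1 (0.070 and 0.072), by limma in each case. In the Saa3-deficient pair Ccnd1 and Cdkn2b were called whichever library was left out. Cdk6 was lost without KO_CAF 2 or 3 or any KO_tumor library (adjusted p 0.066 to 0.15), Cdkn2a without KO_CAF 2 or KO_tumor 1 (0.076 and 0.065), and Ccnd2 when any 1 of 11 libraries was left out (0.052 to 0.19). Over all alternatives the adjusted p with intact Saa3 ran up to 0.093 for Ccnd1, 0.21 for Cdk6 and 0.39 for Cdkn2b, and without Saa3 up to 0.064 for Ccnd1 and 0.038 for Cdkn2b. With the 5 libraries of the 16-base index left out, 0 members were called with intact Saa3, where 1.15% of all genes were called. Without Saa3, 1 (Cdkn2b) was called, where 9.74% of all genes were called. On the fibroblast side the differences with intact Saa3 then rest on WT_CAF 3 alone. Of the members' differences in these 2 comparisons that of Cdk4 with intact Saa3 was the 1 that changed sign (-0.25).

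The other genes of the pathway give the setting. Of 23 other G1/S regulators, 21 were tested. In WT_tumor against WT_CAF 1 was higher, the repressor gene E2f8 (2.03 ± 0.56, limma adjusted p = 0.020), and 1 lower, Cdkn2c, which encodes the INK4 protein p18 (-1.86 ± 0.35, adjusted p = 0.0027). In KO_tumor against KO_CAF Cdkn2c was again lower (-2.42 ± 0.36, adjusted p = 0.00055), while Cdc25a, a phosphatase that activates CDKs (1.05 ± 0.33, adjusted p = 0.030), and E2f5 (0.76 ± 0.26, adjusted p = 0.043) were higher. The 3 INK4 genes called in that pair did not share a direction, with Cdkn2a and Cdkn2b higher and Cdkn2c lower in tumor cells. Cdkn2c was at 11.9 to 19.3 FPKM in all 8 cancer-associated fibroblast libraries and at 1.17 to 4.53 FPKM in all 7 tumor libraries. The list medians, 0.13 and -0.0013, were near those of all genes tested (0.07 and 0.05). The calls were 2 of 21 and 3 of 21, where 21.5% and 28.4% of all genes were called.

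Genes that E2F factors are known to drive for DNA replication were 23 in number, all tested. With intact Saa3, 2 were higher in tumor cells and none lower: Ezh2, a histone methyltransferase (1.14 ± 0.25, limma adjusted p = 0.0060), and Pola1, a DNA polymerase subunit (0.79 ± 0.27, adjusted p = 0.0497). Without Saa3, 8 were higher and none lower, with Mcm7 (1.69 ± 0.48, adjusted p = 0.019), Gins1 (1.59 ± 0.45, adjusted p = 0.018) and Mcm2 (1.57 ± 0.49, adjusted p = 0.029), all parts of the replicative helicase, at the largest differences. The 2 of 23 called with intact Saa3 are a lower share than the 21.5% of all genes called, and the 8 of 23 without it are near the 28.4%. The list medians were 0.77 and 0.93, against 0.07 and 0.05 over all genes tested, and 22 of 23 differences were above 0 in each comparison. Of 12 mitotic genes, 2 were higher in each comparison: Cdc20 (1.42 ± 0.43 and 1.26 ± 0.44) in both, the proliferation marker Mki67 (0.76 ± 0.23) with intact Saa3 and the kinase gene Plk1 (1.04 ± 0.34) without it (adjusted p 0.031 to 0.045). These 2 of 12 are in both comparisons a lower share than that of all genes. The medians of the mitotic list were 0.96 and 0.78, and all 12 differences were above 0 in both.

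No gene of these 3 lists was called in WT_CAF against NPF, for loss of Saa3 or in the interaction (limma). At an unadjusted p under 0.05 there were 3 G1/S regulators, 5 replication genes and 3 mitotic genes in WT_CAF against NPF, 1 G1/S regulator and 1 replication gene for loss of Saa3 in tumor cells, and none in the other 2 tests. Of all genes, 16.9% were under that p in WT_CAF against NPF and 3.95% for loss of Saa3 in tumor cells, the background for these small counts. The smallest p among G1/S regulators there was that of Cdkn1a, which encodes the p53 target p21 (-2.40 ± 0.59, limma adjusted p = 0.071), with 99.95, 209 and 167 FPKM in NPF and 11.6 to 65.3 FPKM in WT_CAF. Among mitotic genes it was Plk1 (1.33 ± 0.38, adjusted p = 0.11) and among replication genes Mcm6 (1.52 ± 0.60, adjusted p = 0.23). The replication list had a median of 0.54 with all libraries and 0.08 without WT_CAF 1, where it rests on WT_CAF 2. For loss of Saa3 the smallest p-values were those of Rbl1, Mcm6 and Mki67 in fibroblasts and of Cdkn2c, Mcm2 and Plk1 in tumor cells, all with an adjusted p of 1. The list of 11 genes for turnover of D cyclins and p27 had no gene called by limma in any comparison, with 1 gene at an unadjusted p under 0.05 in WT_CAF against NPF and 1 in KO_tumor against KO_CAF (41.3% of all genes in the latter). Its smallest p belonged to Fbxo31, a ubiquitin ligase gene for cyclin D1, in WT_CAF against NPF (1.20 ± 0.35, limma adjusted p = 0.12), to Fbxo4 in WT_tumor against WT_CAF (-0.63 ± 0.34, adjusted p = 0.20) and to Cks1b in KO_tumor against KO_CAF (1.38 ± 0.60, adjusted p = 0.10).

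The genes most like each member were found by Pearson correlation of log2(FPKM + 1) over the 18 libraries, which share groups and index forms. For Ccnd1 these were Tm7sf2 (r = 0.95), Snx5 (0.94) and Hsd17b12 (0.93), for Cdk6 Kcnn4 (0.96), Gramd4 (0.96) and Itga6 (0.95), and for Cdkn2b Npnt (0.95), Acsbg1 (0.95) and Jup (0.94). Kcnn4 encodes a potassium channel, Itga6 an integrin and Jup the junction protein plakoglobin. Nearest to Cdkn1c were Elmod2 (0.95), Slc50a1 (0.94) and Arhgap24 (0.94). Nearest to Cdkn1b were Mpst (0.96), Usf2 (0.96) and Tab2 (0.96), and to Cdkn2a Zbtb18 (0.96), Vcpkmt (0.94) and Cmtm4 (0.92), and all 6 of these genes had lower FPKM in every 16-base library than in every other library. The remaining members had weaker matches: Klk8 (0.84) for Ccnd2, Alg3 (0.87) for Ccnd3, Bola1 (0.87) for Cdk4 and Chm (0.83) for Rb1.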

How the data were processed

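The 18 libraries were TruSeq RNA libraries read on an Illumina HiSeq2000, per the labels' protocols. Their values were deposited by the authors as a single FPKM table of 23951 gene symbols. Per the submitters' processing notes the tools were Cufflinks 2.2.1 with Cuffnorm, TopHat2 2.0.10, SAMtools 0.1.19, Bowtie 1.0.0 and FastQC. Listed builds are mm9, GRCh37 and hg19. Which tool did what, and which annotation was used, was not given in the sources used here. The values carry no counts, so depth is unknown and no interval for counting error is given. Cufflinks estimates can fail and list an expressed gene at 0, and transcripts of overlapping genes may be divided in ways not stated. Whether the FPKM were also scaled across libraries was not given. They summed to 396646 to 919859 per library.

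Groups came from the genotype, cell type and treatment labels. The genotype of the tumor-bearing mice differs from that of the NPF mice in a further allele, which is not reported here. The replicates are biological per the series design, whether fibroblasts and tumor cells shared animals is not given, and replicate numbers follow accession order. Genes at 1 FPKM or more in at least 3 libraries (13369 of 23951) were tested on log2(FPKM + 1) with limma 3.58.1 in R 4.3.3 (trend, two-sided; group and index form, residual df 11), adjusted by Benjamini-Hochberg within each comparison and called at an adjusted p under 0.05. A fold on this scale understates changes of low genes. The procedure was run on simulated data for KO_tumor against WT_tumor, with independent normal noise. That setting holds no outlying library and tests no difference that rests on a single library. Intervals are 95% from the fit.

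The members and lists were chosen with earlier results of these data known. All 10 members are named. From each list the called genes with the largest differences (at most 3) are named, or else the gene with the smallest p; likeness was sought among genes whose mean reached 5 FPKM in at least 1 group. Comparisons sharing WT_CAF or WT_tumor share libraries. The comparison of index forms and the fit without 16-base libraries were added after the data were seen. Promoter letters are from RefSeq.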

Additional observations from a re-analysis of the deposited data

Results flagged for a closer look

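Within the groups of 4 and 5 libraries, 20 sets of values (10 genes in WT_CAF and in WT_tumor) were screened on the log2(FPKM + 1) scale for a single library far from the rest, a rule that picks out about 1 in 20 by chance. It picked out 2, both in the same library. Ccnd1 in WT_CAF 1 was at 161 FPKM, while the other 4 WT_CAF libraries had 0.616 to 2.68 FPKM. Cdkn1c in WT_CAF 1 was at 0.9999 FPKM, while the other 4 had 29.9 to 74.7 FPKM. In both genes this library lay on the tumor side of the range. It also had the highest Cdk6 (7.74 FPKM), Cdkn2a (462 FPKM) and Cdkn2b (120.5 FPKM) of the 11 fibroblast libraries. Its 11 fibroblast markers averaged 4.96 on the log2(FPKM + 1) scale against 7.49 to 8.24 in the other WT_CAF, and its 10 epithelial markers 3.27 against 1.91 to 4.13. The part of cell composition in these values was not tested.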

How the results depend on the processing

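No paired analysis was possible because the labels give no replicate numbers that the groups share. Members called in WT_CAF against NPF were 1, and 0 with only the groups compared, 2 without WT_CAF 1 and without the index term, 2 without WT_CAF 1 and WT_tumor 4, and 1 to 4 when single libraries were left out. In WT_tumor against WT_CAF 3 became 0, 5 and 5 under these settings, 0 without the 16-base libraries, and 1 to 5 when single libraries were left out. In KO_tumor against KO_CAF 5 became 3 with no filter, 1 without the 16-base libraries, and 2 to 6 when single libraries were left out. All genes called in WT_CAF against NPF (127) were 307 without the index term, 249 with no filter, 62 with FPKM scaled to the same sum, 2 with only the groups compared, 906 without WT_CAF 1 and the index term, 35 without the 16-base libraries, and 20 to 1330 when single libraries were left out. In WT_tumor against WT_CAF 2880 became 742 with only the groups compared, 151 without the 16-base libraries and 1201 to 3552 when single libraries were left out. In KO_tumor against KO_CAF 3798 became 1276 without the 16-base libraries and 2193 to 4435 when single libraries were left out. For loss of Saa3 in fibroblasts 1 became 0 with only the groups compared, 4 without WT_CAF 1 and the index term, and 1 to 2 when single libraries were left out. In tumor cells 0 became 5 with no filter, 1 without WT_CAF 1 and WT_tumor 4, and 0 to 1 when single libraries were left out. The interaction went from 0 to 1 without the index term, with or without WT_CAF 1, and without WT_CAF 1 and WT_tumor 4, and was 0 to 1 when single libraries were left out. No member was called for loss of Saa3 or the interaction under any setting.

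Signs turned for these uncalled differences. In WT_CAF against NPF, Cdkn1c was 0.47 and Cdkn2b -0.16 without WT_CAF 1 and the index term, and 0.47 and -0.29 without WT_CAF 1 and WT_tumor 4. Ccnd1 in KO_CAF against WT_CAF was -0.77 without the index term, and Cdkn2a 0.30 without WT_CAF 1 and the index term. Without the 16-base libraries Ccnd1 in KO_tumor against WT_tumor was -0.30 and Cdk4 in WT_tumor against WT_CAF -0.25. Cdkn1b in WT_tumor against WT_CAF was 0.31 without the index term and 0.35 with WT_CAF 1 left out too. The interaction of Cdkn2a was -0.12 without WT_CAF 1 and the index term. With single libraries left out, the ranges that crossed 0 were -4.90 to 0.56 (Ccnd1), -4.19 to 0.47 (Cdkn1c) and -0.29 to 2.26 (Cdkn2b) in WT_CAF against NPF, -1.55 to 0.52 (Cdkn2a in KO_CAF against WT_CAF), -1.02 to 0.11 (Ccnd3) and -0.15 to 0.31 (Cdk4) in WT_tumor against WT_CAF. Members called with all libraries in the fit, index term included, kept their sign under every setting; Ccnd1, Cdkn1c, Cdkn2b and Ccnd3 in the ranges above were called only with a library left out. The cause of these shifts was not tested, except that fits of fewer groups or libraries have fewer samples. Scaling to the same sum moved the median of all genes to 0.19 in WT_CAF against NPF, 0.22 in WT_tumor against WT_CAF, 0.10 in KO_tumor against KO_CAF and -0.10 in the interaction. With median-ratio or same-sum scaling, or no filter, Ccnd2 in KO_tumor against KO_CAF was not called (limma adjusted p 0.062, 0.070 and 0.065), Cdk6 there was not called with a pseudocount of 0.1, no filter or same-sum scaling (0.052, 0.053 and 0.056), and Cdkn2a there was not called without the index term (0.15). Depth is unknown, so what it limits at low levels, as for Cdk6 in fibroblasts, cannot be given.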

Other observations

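Mtap, which encodes methylthioadenosine phosphorylase and lies beside the INK4 genes, was the 1 gene of 3 INK4 neighbours that passed the filter. It was higher in tumor cells with intact Saa3 by 1.21 ± 0.37 (SE; limma, adjusted p = 0.031) and without it by 1.77 ± 0.37 (adjusted p = 0.0039). Tumor libraries had 76.4, 38.3, 23.7 and 50.7 FPKM (WT_tumor) and 74.1, 99.1 and 40.2 FPKM (KO_tumor). KO_CAF had 20.8, 11.6 and 27.4 FPKM and WT_CAF had 56.4, 22.0, 17.0, 22.6 and 33.8 FPKM, with WT_CAF 1 again the highest fibroblast library. In every tumor library Cdkn2a, Cdkn2b and Mtap were all at 8.55 FPKM or more.

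Of 8 genes of the imprinted domain around Cdkn1c, 6 were tested. Kcnq1, a potassium channel gene, was higher in tumor cells by 3.07 ± 0.57 with intact Saa3 (limma, adjusted p = 0.0024) and 3.83 ± 0.58 without it (adjusted p = 0.00060). Phlda2, a growth-restraining gene of the placenta, was higher by 3.12 ± 0.45 (adjusted p = 0.00074) and 3.63 ± 0.46 (adjusted p = 0.00023). Kcnq1 stood at 2.40 to 25.0 FPKM in the 7 tumor libraries and at 0 to 0.906 FPKM in the 11 fibroblast libraries. For Phlda2 the ranges were 4.69 to 31.2 FPKM and 0 to 1.47 FPKM. Cdkn1c, in the same domain, had its lower levels in tumor cells. WT_CAF 1 was below every tumor library for both Kcnq1 (0.0504 FPKM) and Phlda2 (0.797 FPKM), although its Phlda2 was the highest of the WT_CAF libraries. Cd81 was lower in tumor cells with intact Saa3 (-1.28 ± 0.30, adjusted p = 0.0086).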
